A study of Arabidopsis thaliana with 21 samples.

Results

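A set of 10 genes of sulfur metabolism in Arabidopsis thaliana was followed across 7 feeding treatments of excised leaves. They were chosen by name for roles in sulfur starvation and sulfate assimilation, with earlier results of these data known, so counts of them beside shares of all genes are descriptions. They encode the sulfate transporters SULTR1;1, SULTR1;2 and SULTR4;2, the reductases APR1, APR2 and APR3, the starvation proteins SDI1, LSU1 and LSU2, and the glutathione-degrading enzyme GGCT2;1. Of these 10 genes, 9 were among the 21156 loci of the table analysed, and SULTR1;1 was not analysed here. Most of the 9 were lower in leaves fed LiCl, and with ATP or PAP none of them passed the threshold of the test.

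Plants take up sulfate with transporters of the SULTR family and activate it with ATP to adenosine phosphosulfate (APS). APS reductase reduces APS to sulfite, which is reduced further to sulfide and built into cysteine and glutathione. Alternatively APS kinase phosphorylates APS to PAPS, the sulfate donor of sulfotransferases, and these release the by-product PAP (phosphoadenosine phosphate). The phosphatase SAL1 breaks PAP down and is inhibited by lithium, and PAP that accumulates inhibits the XRN exoribonucleases. When sulfur runs short, plants raise transporter, APS reductase, SDI and LSU transcripts.

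The plants were 35-day-old F1 hybrids of the accessions Col-0 and Ler, and every treatment was drawn through the petiole of a cut leaf in the same buffer, which contained sucrose. There were 7 groups, each of 3 libraries of polyadenylated RNA. Control leaves received that buffer only. Single agents were LiCl at 100 mM, PAP at 100 µM and ATP at 1 mM, and combinations were PAP with LiCl, PAP with ATP, and all 3 agents. The treatment notes give PAP as 1 mM or 100 mM, so the dose of 100 µM in the sample labels is uncertain. No group received ATP and LiCl without PAP, and none received another salt in place of LiCl. The feeding time and the sulfur supply are not given. Nothing in the labels says that the 3 libraries of a group came from separate plants, so p-values measure the spread between these libraries, which may be technical.

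Libraries held 19190821 to 27155547 reads assigned to genes, and 1 read was worth 0.0368 to 0.0521 CPM (reads scaled to the library total). They are numbered 1 to 21 here in the order of the table's columns, which name the group of a library but not its replicate number. SAL1, the phosphatase named above as inhibited by lithium, stood at group means between 90.8 and 177 CPM. Among markers of leaf cell types all 6 mesophyll genes were listed in every library, none of 5 root markers was among the loci analysed, and 3 flower markers together reached at most 0.722 CPM in any library.

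Values below are CPM, changes are log2 ratios of CPM + 0.5 with their standard error, and adjusted p is that of limma after Benjamini-Hochberg adjustment over all genes of a comparison, with a threshold of 0.05. Because of the added 0.5, a change of a gene with a low level is understated. The effect of LiCl was measured in 3 contrasts, with buffer, with PAP and with PAP and ATP as the background, and as the mean of the 3. For the 7 genes with a value in all 7 groups, a test of any difference among the groups passed for GGCT2;1 (adjusted p = 5.88e-06), LSU2 (0.000826), APR3 (0.00107), SDI1 (0.00191) and APR2 (0.0255). It did not pass for APR1 (0.0574) and SULTR4;2 (0.668). Of 17440 genes with a value in all groups, 35.6% passed it.

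Of the 7 genes tested for the mean effect of LiCl, GGCT2;1, LSU2 and SDI1 fell most. LSU1 and SULTR1;2 have no such mean, as they lack a value in some or all LiCl groups. The 250 bases before the annotated starts of GGCT2;1, LSU2 and SDI1 are shown as their proximal promoters. The sequences are from the RefSeq assembly TAIR10.1, written 5' to 3' on the strand of the gene, and all 3 genes lie on the minus strand, at chr5:9164885-9165134 for GGCT2;1, chr5:8444102-8444351 for LSU2 and chr5:19807854-19808103 for SDI1. Capitals mark GAGAC or its reverse complement GTCTC, the core of a sulfur-responsive element described in Arabidopsis sulfate transporter promoters.
GGCT2;1: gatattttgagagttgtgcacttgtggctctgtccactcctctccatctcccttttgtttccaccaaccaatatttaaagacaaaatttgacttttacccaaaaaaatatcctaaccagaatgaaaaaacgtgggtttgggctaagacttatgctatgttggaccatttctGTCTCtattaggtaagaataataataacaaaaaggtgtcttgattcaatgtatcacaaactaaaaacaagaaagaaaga
LSU2: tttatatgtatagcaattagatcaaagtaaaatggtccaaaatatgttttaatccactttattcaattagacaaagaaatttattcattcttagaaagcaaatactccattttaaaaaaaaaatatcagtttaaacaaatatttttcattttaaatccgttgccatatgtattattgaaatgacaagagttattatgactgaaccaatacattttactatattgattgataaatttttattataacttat
SDI1: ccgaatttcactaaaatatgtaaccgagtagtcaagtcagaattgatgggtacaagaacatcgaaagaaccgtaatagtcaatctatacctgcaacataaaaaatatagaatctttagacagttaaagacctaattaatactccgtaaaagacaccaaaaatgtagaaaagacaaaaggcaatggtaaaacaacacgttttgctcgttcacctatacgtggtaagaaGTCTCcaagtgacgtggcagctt
A match started 79 bases before the gene start in GGCT2;1 and 23 bases before it in SDI1, and the LSU2 window held none. Among the 10 genes, SULTR1;1 included, 2 held the 5 letters on either strand in this window. Of 20951 promoter windows of the same length, 25.4% did. A match of 5 letters is a description of these windows and says nothing of whether a factor binds there.

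In leaves fed buffer alone the levels per kilobase of exon differed widely between the genes. APR1 was highest at 75.6 CPM per kb, followed by APR3 at 45.4, APR2 at 32.4 and LSU2 at 29.1. GGCT2;1 stood at 23.4, SDI1 at 19.3 and LSU1 at 9.57 CPM per kb. The transporters were low in these leaves, SULTR4;2 at 2.54 and SULTR1;2 at 0.239 CPM per kb. SULTR1;2 is known as a transporter of uptake by roots, and leaf is not the organ where it acts mainly.

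**Figure D1:**
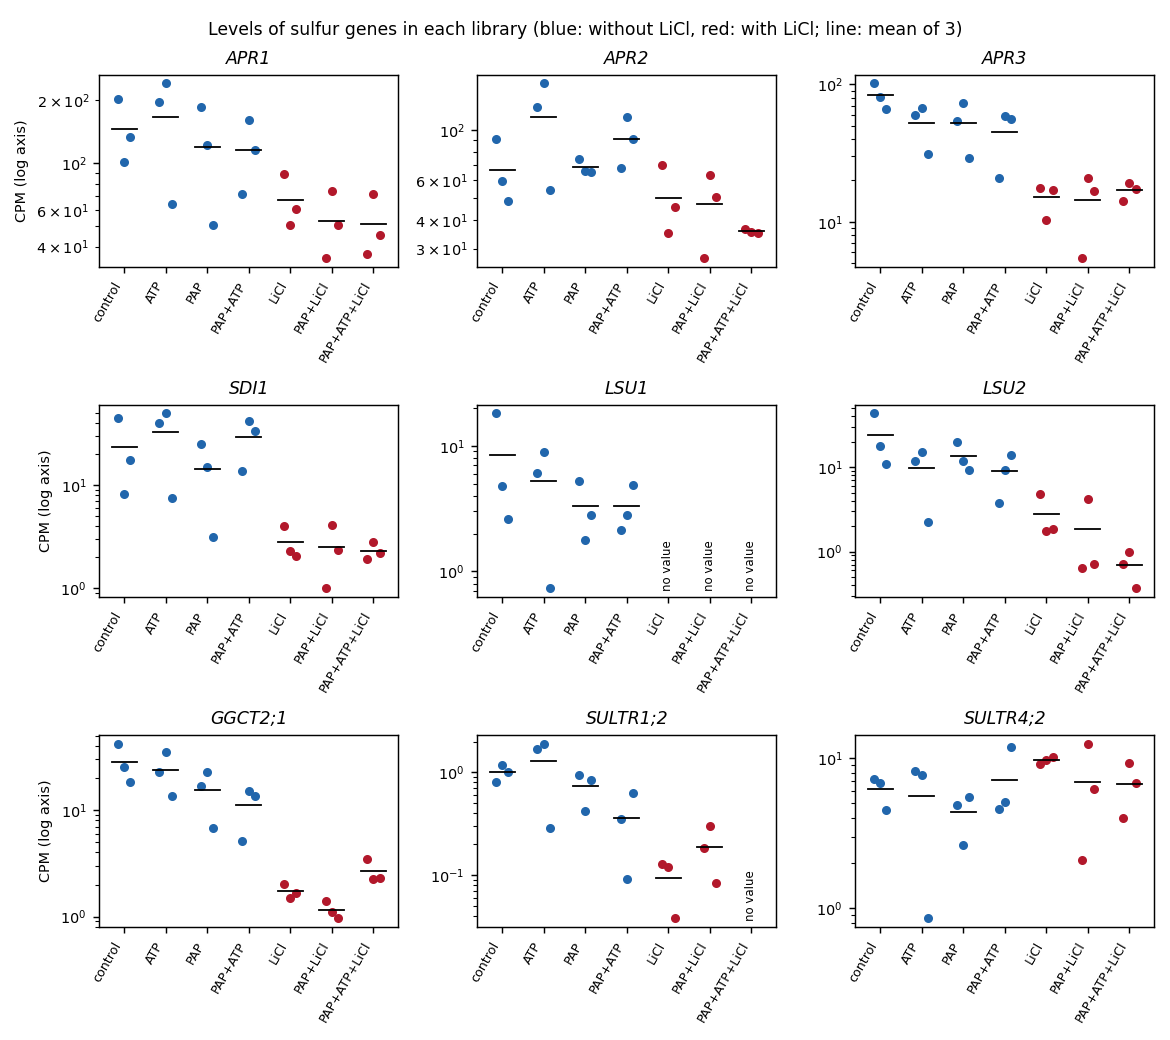
Level of each of the 9 listed genes in every library, in CPM on a log axis, by feeding group; points are libraries, blue without and red with LiCl, and the line is the mean of 3. The 9 LiCl libraries of GGCT2;1 lie between 0.961 and 3.51 CPM, below all 12 others, and those of SULTR4;2 lie among the others.

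SULTR1;2 (AT1G78000, chromosome 1, 29327515-29333220, plus strand) encodes a high-affinity sulfate transporter of the plasma membrane. It stood at 0.810, 1.18 and 1.02 CPM in control leaves and at 0.127, 0.118 and 0.0376 CPM with LiCl, which is 3 reads or fewer in each LiCl library. With PAP it stood at 0.938, 0.415 and 0.847 CPM, and with PAP and LiCl at 0.182, 0.297 and 0.0835. Both pairs of groups lay apart, and the group fed PAP, ATP and LiCl has no value for this gene. SULTR1;2 fell with LiCl against control (-1.33 ± 0.37, adjusted p = 0.02205). The filter asked for 1 CPM or more in 3 or more libraries. SULTR1;2 met it only through control and ATP libraries, at 1.18, 1.02, 1.69 and 1.90 CPM. The falls of SULTR1;2 from these groups are therefore descriptions. Summed over libraries it had 7 reads with LiCl and 68 in control, a 10.9-fold lower level at equal depth (exact 95% counting interval 5.03 to 28.2, which leaves out the spread between libraries). The change from PAP to PAP with LiCl was -0.83 ± 0.37 and did not pass (adjusted p = 0.126). The call against control was lost when control library 2, LiCl library 11 or LiCl library 12 was left out (adjusted p = 0.0618, 0.0577 and 0.0753).

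SULTR4;2 (AT3G12520, chromosome 3, 3967816-3972135, minus strand) encodes a transporter that releases sulfate from the vacuole. It stood at 7.24, 6.86 and 4.53 CPM in control and at 9.11, 9.64 and 10.2 CPM with LiCl alone. In the other groups it ranged from 0.858 CPM in an ATP library to 12.4 CPM in a library fed PAP and LiCl. The 3 libraries fed LiCl alone lay above the 3 control libraries, as for 14.1% of all genes, and above those fed ATP or PAP alone. They overlapped those fed PAP and ATP, which reached 11.8 CPM, and the levels of the other groups overlapped widely. Its mean change with LiCl was 0.32 ± 0.36 (95% confidence interval -0.44 to 1.07, adjusted p = 0.502), so a 2-fold rise and a small fall both lay inside the interval. Its 3' neighbour on the other strand, AT3G12510, overlaps it by 7 bases and fell with LiCl (-1.66 ± 0.21, adjusted p = 1.09e-05). AT3G02545, also on the other strand, overlaps SULTR4;2 by 223 bases and has no value here. The libraries do not keep the strand, so reads of these overlaps cannot be assigned to 1 gene.

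The APR genes encode the plastid enzymes that reduce APS to sulfite, which is regarded as the main control point of sulfate assimilation. All 3 fell with LiCl in the mean over backgrounds, and APR3 fell most.

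APR3 (AT4G21990, chromosome 4, 11657008-11659167, minus strand) stood at 102, 80.7 and 66.6 CPM in control leaves and at 17.7, 10.4 and 17.1 CPM with LiCl. With PAP its values were 54.5, 72.7 and 28.9 CPM, and with PAP and LiCl 5.46, 20.9 and 16.7. With PAP and ATP they were 20.8, 59.0 and 56.0 CPM, and with LiCl added 14.3, 19.3 and 17.3. In each of the 3 backgrounds every LiCl library lay below every library without it. The falls were -2.44 ± 0.47 in buffer (adjusted p = 0.00216), -1.92 ± 0.47 with PAP (0.00794) and -1.26 ± 0.47 with PAP and ATP (0.106, not past the threshold). Their mean was -1.87 ± 0.27, a 3.66-fold fall (adjusted p = 3.89e-05). In a fit of only the compared groups the fall with PAP was not past (0.0509). The gene overlaps ATG8A (listed as APG8A, AT4G21980), a gene of autophagy on the other strand, by 27 bases. ATG8A changed by -0.54 ± 0.16 with LiCl (adjusted p = 0.013).

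APR1 (AT4G04610, chromosome 4, 2324878-2327064, plus strand) stood at 204, 102 and 133 CPM in control and at 89.0, 50.7 and 60.7 CPM with LiCl. Over all groups its 9 LiCl libraries ran from 35.3 to 89.0 CPM and the other 12 from 50.9 to 241. The ranges overlapped, and 5 of the 9 LiCl libraries lay below all others. Its change was -1.11 ± 0.51 in buffer, -1.03 ± 0.51 with PAP and -1.15 ± 0.51 with PAP and ATP. None of the 3 passed alone (adjusted p = 0.142, 0.158 and 0.179), and their mean, -1.10 ± 0.29, did (adjusted p = 0.00637). AT4G04614 overlaps APR1 by 21 bases on the other strand and changed by -0.10 ± 0.12 with LiCl (adjusted p = 0.55).

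APR2 (AT1G62180, chromosome 1, 22975530-22977885, minus strand) stood at 90.9, 59.6 and 48.6 CPM in control and at 69.7, 35.0 and 45.8 CPM with LiCl, and these groups overlapped. With PAP and ATP it stood at 67.8, 114 and 91.2 CPM, and with LiCl added at 36.6, 35.5 and 35.1 CPM. The last 2 groups lay apart, and the difference passed (-1.31 ± 0.37, adjusted p = 0.0336). The change was -0.41 ± 0.37 in buffer and -0.62 ± 0.37 with PAP, neither past the threshold (adjusted p = 0.471 and 0.251). The mean of the 3 was -0.78 ± 0.21 (adjusted p = 0.00763), the smallest of the 6 that passed. The call in PAP and ATP was lost without any 1 of libraries 17, 18, 19, 20 and 21, with an adjusted p of 0.117, 0.0792, 0.0649, 0.102 and 0.0983. AT1G62170 and AT1G08477 overlap APR2 on the other strand, by 225 and 782 bases. AT1G62170 stood at a mean of 0.068 CPM, and AT1G08477 has no value here. As the libraries do not keep the strand, reads of these overlaps cannot be assigned to 1 gene.

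SDI1 (AT5G48850, chromosome 5, 19805437-19807853, minus strand) is a marker of sulfur starvation whose protein represses glucosinolate synthesis. It stood at 44.8, 8.20 and 17.4 CPM in control and at 4.01, 2.28 and 2.07 CPM with LiCl. With PAP it stood at 24.8, 14.8 and 3.17 CPM, and with PAP and LiCl at 1.00, 4.12 and 2.34. With PAP and ATP it stood at 13.8, 41.4 and 33.3 CPM, and with LiCl added at 1.90, 2.79 and 2.21. The groups lay apart in buffer and in PAP with ATP and overlapped with PAP, where library 9 had 3.17 CPM. SDI1 fell by 2.59 ± 0.75 on the log2 scale in buffer (adjusted p = 0.0243) and by 3.30 ± 0.75 with PAP and ATP (0.0105). With PAP the change was -2.06 ± 0.75 (0.0587, not past), and the mean was -2.65 ± 0.43 (adjusted p = 0.000117). The call in buffer was lost without control library 1 (-1.97, adjusted p = 0.132), LiCl library 11 (0.0763) or LiCl library 12 (0.082).

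The LSU proteins are small proteins that bind many partners and are induced by sulfur deficiency. LSU2 (AT5G24660, chromosome 5, 8443279-8444101, minus strand) stood at 43.2, 17.6 and 10.9 CPM in control and at 4.85, 1.73 and 1.84 CPM with LiCl. With PAP it stood at 19.8, 11.8 and 9.17 CPM, and with PAP and LiCl at 0.637, 4.16 and 0.710. With PAP and ATP it stood at 3.78, 9.30 and 13.8 CPM, and with LiCl added at 0.719, 0.990 and 0.368. In all 3 backgrounds the libraries with LiCl lay below those without. The fall on the log2(CPM + 0.5) scale was -2.78 ± 0.68 in buffer (adjusted p = 0.00995), -2.85 ± 0.68 with PAP (0.00669) and -2.86 ± 0.68 with PAP and ATP (0.0138). With PAP, ATP and LiCl the level lies near the added 0.5, so the last of these is understated most. Their mean was -2.83 ± 0.39, a 7.11-fold fall (adjusted p = 2.52e-05). Without control library 1 the fall in buffer was no longer called (adjusted p = 0.0618), and without PAP and ATP library 18 or PAP, ATP and LiCl library 21 neither was the last (0.0583 and 0.0632).

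LSU1 (AT3G49580, chromosome 3, 18374908-18375940, minus strand) was listed in all 4 groups without LiCl and has no value in any of the 3 groups with it. It stood at 18.05, 4.75 and 2.63 CPM in control, 6.07, 8.97 and 0.736 with ATP, 5.28, 1.79 and 2.80 with PAP, and 2.15, 2.825 and 4.90 with PAP and ATP. That is 18 to 379 reads in a library. The table leaves out whole groups and holds no 0, and reads assigned to genes that it leaves out came to 2357 to 4846 in each LiCl library. The level of LSU1 with LiCl is therefore not known, and no fold or test is given. The same pattern, a value in each group without LiCl and none with it, was found in 86 loci (0.4065% of the table), and 2 of these, LSU1 included, had a mean at or above the 5.08 CPM of LSU1 without LiCl. The opposite pattern was found in 22 loci.

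GGCT2;1 (AT5G26220, chromosome 5, 9162969-9164884, minus strand) encodes a cytosolic gamma-glutamyl cyclotransferase that breaks glutathione down, from which its sulfur-containing amino acid can be recovered. It stood at 42.1, 25.2 and 18.5 CPM in control and at 2.02, 1.495 and 1.65 CPM with LiCl. With PAP it stood at 17.0, 22.7 and 6.78 CPM, and with PAP and LiCl at 1.41, 1.10 and 0.961. With PAP and ATP it stood at 5.14, 15.2 and 13.4 CPM, and with LiCl added at 3.51, 2.25 and 2.29. Every library fed LiCl, at 3.51 CPM or less, lay below every library without it, at 5.14 CPM or more, which held for 464 of 17440 genes (2.66%). The fall was -3.63 ± 0.44 in buffer, a 12.4-fold decrease (adjusted p = 5.79e-05), -3.12 ± 0.44 with PAP (0.0001495) and -1.77 ± 0.44 with PAP and ATP (0.0177). Their mean of -2.84 ± 0.26 (adjusted p = 2.75e-07) was the largest fall among the 7 genes tested, beside -2.83 for LSU2. The call with PAP and ATP was lost without libraries 17, 18, 20 or 21 (adjusted p = 0.0772, 0.0658, 0.0747 and 0.0692).

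Counted over the genes, 6 of 7 fell with LiCl in the mean of the 3 backgrounds and none rose, and their median change was -1.87. Of all 17458 genes tested in that comparison 41.6% passed (21.5% fell and 20.1% rose), and the median change was 0.01. In buffer 5 of 8 fell (APR3, SDI1, LSU2, SULTR1;2 and GGCT2;1), against 10.4% of all genes. With PAP 3 of 8 fell (APR3, LSU2 and GGCT2;1), against 12%. With PAP and ATP 4 of 7 fell (APR2, SDI1, LSU2 and GGCT2;1), against 4.85%. Groups without overlap, lower with LiCl, were found for 6 of 8 genes in buffer, 5 of 8 with PAP and 5 of 7 with PAP and ATP, against 19.1%, 21.7% and 13.3% of all genes. SULTR1;2, in the buffer counts and among the 5 of 8 apart with PAP, met the filter only through libraries without LiCl. Its part in these counts is a description only. The count with PAP and ATP rested on single libraries: it was 1 without library 18 or library 21 and 5 without library 16. In buffer it was 3 without control library 1, LiCl library 11 or LiCl library 12, and with PAP it was 5 without ATP library 6 or PAP library 9.

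**Figure D2:**
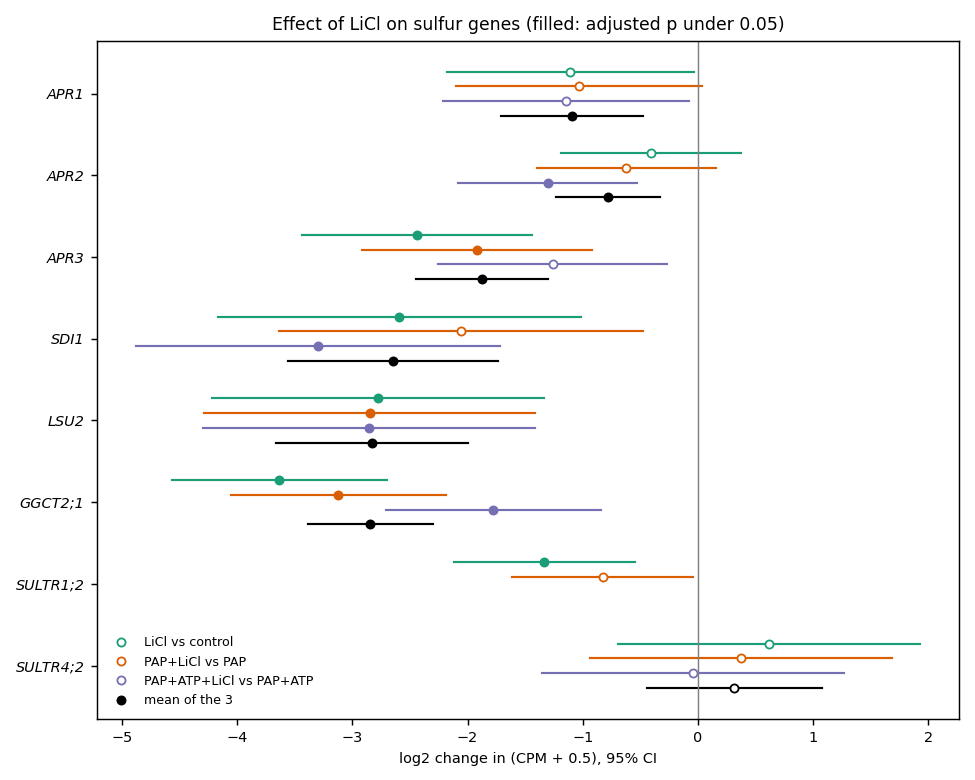
Change with LiCl of 8 genes on the log2(CPM + 0.5) scale with 95% confidence intervals, in buffer, with PAP, with PAP and ATP, and as the mean of these 3; filled points passed an adjusted p of 0.05. The mean lies below 0 with its whole interval for 6 genes, and the interval of SULTR4;2 runs from -0.44 to 1.07.

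The groups that combined LiCl with other agents were also set against control, with the same control libraries as in the comparison of LiCl alone. With PAP and LiCl 4 of 8 genes fell (APR3, SDI1, LSU2 and GGCT2;1), against 10.1% of all genes, and SULTR1;2 lay at the threshold (-1.13 ± 0.37, adjusted p = 0.05, not past). With PAP, ATP and LiCl 5 of 7 fell (APR1, APR3, SDI1, LSU2 and GGCT2;1), against 11.1%. LSU2 was lowest there, at -4.16 ± 0.68 (adjusted p = 0.000547). APR1, at -1.50 ± 0.51 (adjusted p = 0.0459), was not past with edgeR (0.0579), after median-of-ratios scaling (0.0643) or when any 1 of libraries 1, 3, 4, 8, 11, 12, 15, 18, 19, 20 and 21 was left out (0.0501 to 0.185). SDI1 was no longer called without control library 1 in either group (0.0961 and 0.0936), nor, with PAP and LiCl, without library 13 (0.0734) or 15 (0.0547) or in a fit of only the compared groups (0.052).

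Markers of leaf cell types moved with LiCl as well, in a comparison in which 41.6% of all genes passed. Of 3 epidermis markers tested 1 fell, the wax synthesis gene CER6 (-1.67 ± 0.19, adjusted p = 4.07e-06), and FDH and ATML1 did not pass. The summed level of the listed epidermis markers was 177 to 519 CPM in the 9 libraries with LiCl and 406 to 1323 in the 12 without. Most of this sum was CER6, at means of 571 CPM in control and 188 with LiCl alone. FDH stood at 95.4 and 97.8 CPM in these groups, and ATML1 at 37.1 and 26.8. Of 8 vascular markers 4 rose, the phloem sucrose carrier SUC2 (0.99 ± 0.14), ATHB8, APL and AHA3, and 2 fell, the sugar exporters SWEET11 and SWEET12. Vascular sums were 746 to 949 CPM with and 396 to 1008 without LiCl. Of 6 mesophyll markers 1 rose, RCA (0.70 ± 0.23), with sums of 27072 to 46179 and 22285 to 45124 CPM, and none of 3 guard cell markers passed. The part of these shifts in the changes of the sulfur genes was not tested, and in whole leaves fewer cells of a type and less RNA per cell cannot be told apart. SAL1 itself changed by -0.48 ± 0.17 with LiCl (adjusted p = 0.0278).

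The response to LiCl was then followed through the rest of the pathway, in a list of 37 further genes of which 34 were listed and 30 tested for the mean LiCl effect. Here 8 rose and 10 fell, with a median change of 0.08, where 20.1% of all genes rose and 21.5% fell. The starvation group had 7 named genes, of which 5 were listed, and all 3 tested for this mean fell. LSU4 has no value with PAP, ATP and LiCl and was not tested for it. SDI2, the close relative of SDI1, went from 33.4 ± 14.0 CPM (SD, n = 3) in control to 6.995 ± 4.35 with LiCl, and its mean change was -2.61 ± 0.36 (adjusted p = 2.37e-05). SHM7, a serine hydroxymethyltransferase family gene, went from 66.1 ± 15.5 to 17.6 ± 2.65 CPM and changed by -1.70 ± 0.26 (adjusted p = 7.06e-05). SLIM1, the transcription factor of the sulfur starvation response, went from 14.9 ± 4.66 to 8.15 ± 0.677 CPM and changed by -0.69 ± 0.14 (adjusted p = 0.000742). LSU3, a relative of LSU1, had 185 to 446 reads in control libraries, no value with LiCl or with PAP and LiCl, and 3, 3 and 2 reads with PAP, ATP and LiCl. From PAP and ATP to PAP, ATP and LiCl its summed reads went from 646 to 8, an 88.9-fold lower level (exact 95% counting interval 44.8 to 207). This interval leaves out the spread between libraries, which held 104, 247 and 295 reads with PAP and ATP. LSU3 reached 1 CPM only in libraries without LiCl, so its lower level with LiCl is a description.

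Sulfate transporters outside the named set went both ways. SULTR4;1, the vacuolar partner of SULTR4;2, fell (-1.49 ± 0.26, adjusted p = 0.000194), and SULTR2;1 (0.84 ± 0.16), SULTR2;2 (0.74 ± 0.29) and SULTR3;5 (0.90 ± 0.26) rose. The ATP sulfurylase genes, which encode the step before APS reductase, also split. APS3 (1.46 ± 0.19, adjusted p = 1.13e-05) and APS1 (0.50 ± 0.15) rose, while APS4 fell (-0.64 ± 0.25, adjusted p = 0.0497). Of 4 APS kinase genes APK2 rose (0.51 ± 0.15) and APK3 fell (-0.73 ± 0.13). Sulfite reductase, SIR, the step after APS reductase, fell slightly (-0.44 ± 0.17, adjusted p = 0.0401). In cysteine synthesis the serine acetyltransferase genes SERAT2;1 (-1.09 ± 0.16, adjusted p = 3.70e-05) and SERAT1;1 (-0.71 ± 0.20) fell, and SERAT3;1 (0.59 ± 0.13) and OASA1 (0.28 ± 0.09) rose. The genes of glutathione synthesis, GSH1 (0.24 ± 0.11) and GSH2 (-0.30 ± 0.14), did not pass, and GGCT2;2, a relative of GGCT2;1, fell (-0.67 ± 0.25, adjusted p = 0.0383).

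**Figure D3:**
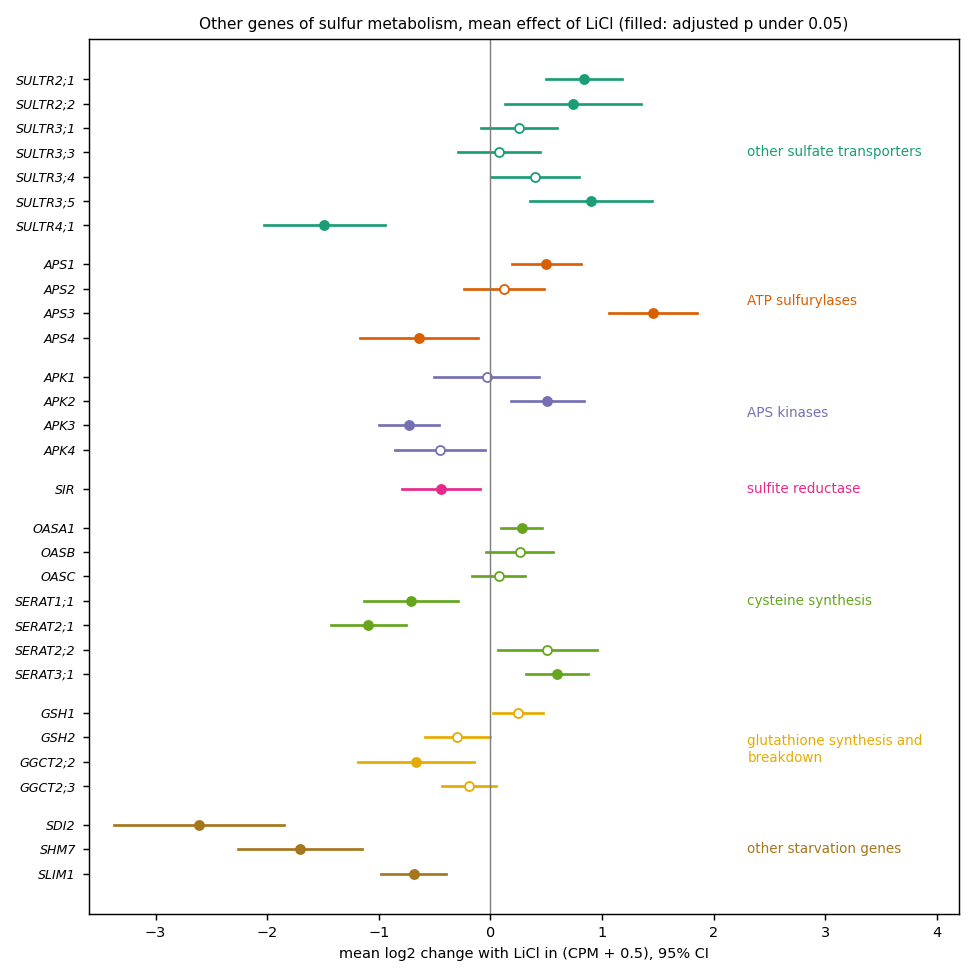
Mean change with LiCl of 30 further genes of sulfur metabolism on the log2(CPM + 0.5) scale with 95% confidence intervals, grouped by role; filled points passed an adjusted p of 0.05. SDI2 lies farthest to the left at -2.61, before SHM7 at -1.70 and SULTR4;1 at -1.49, and APS3 lies farthest to the right at 1.46.

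ATP is the co-substrate of sulfate activation and was fed at 1 mM. None of the 9 genes passed against control, where 7.27% of all genes did, none of 9 with PAP as the background (6.92%), none of 7 with PAP and LiCl (0.113%), and none of 7 in the mean (15.1%). EdgeR and DESeq2, which covered the 7 genes with a value in every group, also called 0 in each, and the single unadjusted p under 0.05, as for 31.4% of all genes, was that of LSU2 in the mean (-0.90 ± 0.39, limma adjusted p = 0.127). APR1 was 196, 241 and 63.9 CPM with ATP, against 204, 102 and 133 in control, a change of 0.04 ± 0.51 (95% confidence interval -1.03 to 1.11). APR2 was 126, 160 and 54.5 CPM with ATP and changed by 0.69 ± 0.37 (-0.10 to 1.47). The groups overlapped for all 9 genes, and in each the lowest ATP value was that of library 6. Scaling by median of ratios shifted the median of all genes in this comparison by 0.20, from -0.16 to 0.04, and called none of the 9.

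Of the other genes of the pathway 2 of 31 passed with ATP against control, a share close to the 7.27% of all genes, so nothing is read from the count. They were the serine acetyltransferase gene SERAT2;2 (-1.27 ± 0.36, adjusted p = 0.0429) and the cysteine synthase gene OASC (-0.68 ± 0.20, adjusted p = 0.0438), and both fell. In the mean of the 3 ATP contrasts SERAT2;1 (0.85 ± 0.16, adjusted p = 0.00339) and APS3 (0.63 ± 0.19, 0.0316) rose, and APS2 (-0.52 ± 0.17, 0.0488) and OASC (-0.40 ± 0.11, 0.0266) fell. These were 4 of 30 tested, where 15.1% of all genes passed, and nothing is read from this count either.

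PAP is both a product of the sulfate pathway and the signal named in the series title. None of the 9 genes passed with PAP against control or with PAP and ATP against ATP, none of 8 with PAP and LiCl against LiCl, and none of 8 in the mean, and limma called 0% of all genes in each of these. EdgeR and DESeq2 called none of the 7 genes they covered. All 8 genes of the mean lay below 0, with a median of -0.37, where 50.3% of all genes did. SULTR1;2, at -0.35, met the filter only through control and ATP libraries, which stand on the side without PAP. Its falls with PAP are therefore descriptions. The 8 genes share their libraries and several varied together within groups, so their common sign does not count as 8 observations. GGCT2;1 had the largest of the 8 changes, -0.81 ± 0.26 (95% confidence interval -1.35 to -0.27, limma adjusted p = 1). It was the single gene of the 8 with an unadjusted p under 0.05 in the mean, as were 1.86% of all genes. Its level went from 28.6 ± 12.2 CPM (SD, n = 3) in control to 15.5 ± 8.08 with PAP, from 23.7 ± 10.8 with ATP to 11.3 ± 5.36 with PAP and ATP, and from 1.72 ± 0.272 with LiCl to 1.16 ± 0.230 with PAP and LiCl. The last pair of groups did not overlap, which held for 4.34% of all genes in that comparison in the direction lower with PAP. Before adjustment it was also under 0.05 for this gene with PAP against control (limma adjusted p = 0.984), as for 4.8% of all genes. From ATP to PAP and ATP it was so for this gene and SULTR1;2 (limma adjusted p = 0.423 and 0.401), as for 10.7% of all genes. The 3 PAP contrasts use separate pairs of groups, but each of these groups also enters a LiCl or ATP contrast.

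Against control, none of the 9 genes passed with PAP and ATP together, nor did edgeR or DESeq2 call any, as against 2.17% of all genes. The p before adjustment was under 0.05 for SULTR1;2 (-0.85 ± 0.37, limma adjusted p = 0.222) and GGCT2;1 (-1.36 ± 0.44, 0.108), as for 19.6% of all genes. For SULTR1;2, which met the filter only through control and ATP libraries, this is a description. The effect of 1 agent did not differ past the threshold with the presence of another in any gene: 0 of 8 passed for PAP with LiCl, 0 of 9 for PAP with ATP and 0 of 7 for ATP with LiCl in the presence of PAP. Limma called 0% of all genes in the first and the second of these and 0.0684% in the last, and edgeR and DESeq2 called none of the 7 genes. A p under 0.05 before adjustment was reached by GGCT2;1 alone, for ATP with LiCl (1.35 ± 0.63, limma adjusted p = 0.57), as by 8.68% of all genes, and its levels with LiCl were 1.16 ± 0.230 CPM with PAP and 2.68 ± 0.715 with PAP and ATP.

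**Figure D4:**
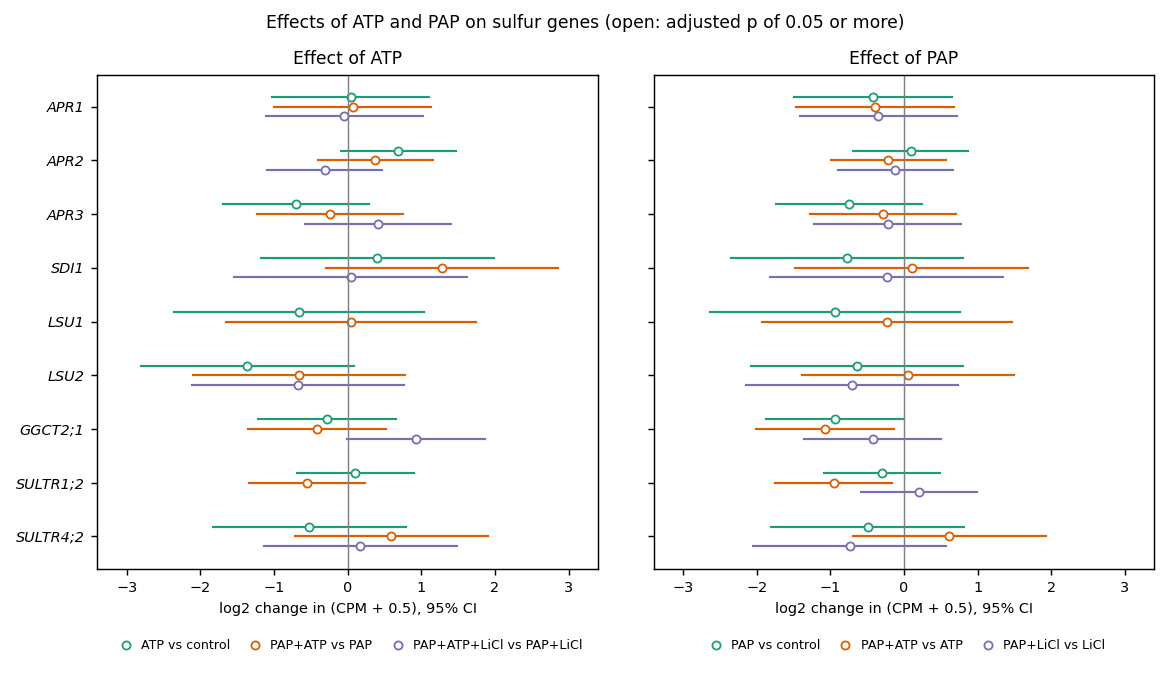
Changes with ATP (left) and with PAP (right) of the 9 listed genes on the log2(CPM + 0.5) scale with 95% confidence intervals, each in 3 backgrounds; open points did not pass an adjusted p of 0.05, and all are open. The intervals of most genes reach about 1 to either side or more, as for APR1 with ATP, -1.03 to 1.11.

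Within groups several libraries were high or low for most of the genes. Library 6 was the lowest of the 3 ATP libraries for 9 of 9 genes, while it was lowest for 29.4% of 17739 genes. Library 1 was the highest control library for 8 of 9 genes (26.6% of all genes), and library 5 the highest ATP library for 8 of 9 (23.7%). Library 16 was the lowest with PAP and ATP for 8 of 9 (43.2%), and libraries 10 and 14 were the highest of their groups for 7 of 8 each (54% and 34.5%). With PAP, ATP and LiCl library 20 was highest for 5 of 7 (14.6% of all genes), and library 19 was lowest for 4 (43.9%) and highest for 2 (39.9%). The labels name no batch, and what these libraries share was not tested.

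Pairs were formed of the 6 genes that fell with LiCl in the mean, APR1, APR2, APR3, SDI1, LSU2 and GGCT2;1. A high correlation of these over all libraries, and a lower one with SULTR4;2, therefore follow in part from that choice. The correlation of log2 values over the 21 libraries ranged from 0.696 to 0.933 in the 15 pairs, with a median of 0.864. After the mean of each group was taken away it ranged from 0.561 to 0.958, with a median of 0.775, and APR1 with SDI1 was highest. SULTR4;2 was correlated with the 6 genes at -0.197 to 0.218 over all libraries and at 0.195 to 0.741 within groups. For SULTR1;2, over the 18 libraries with a value, the correlation with the 6 genes within groups was 0.151 to 0.568, with a median of 0.367. For LSU1, over the 12 libraries with a value, it was 0.551 to 0.941. These correlations describe libraries that share each treatment and each leaf sample, and no test was made of them. The SD of log2 values within a group had a median of 1.03 over the 9 genes with ATP, where it was 0.314 over all genes. It was 0.504 against 0.403 in control, 0.672 against 0.369 with PAP and 0.698 against 0.324 with PAP and ATP. With LiCl it was 0.413 against 0.256 (8 genes) and with PAP and LiCl 0.716 against 0.262 (8 genes). With PAP, ATP and LiCl it was 0.308 against 0.259 (7 genes). The largest SDs were those of LSU1 (1.57) and SULTR4;2 (1.52) with ATP, before SDI1 with PAP (1.45).

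**Figure D5:**
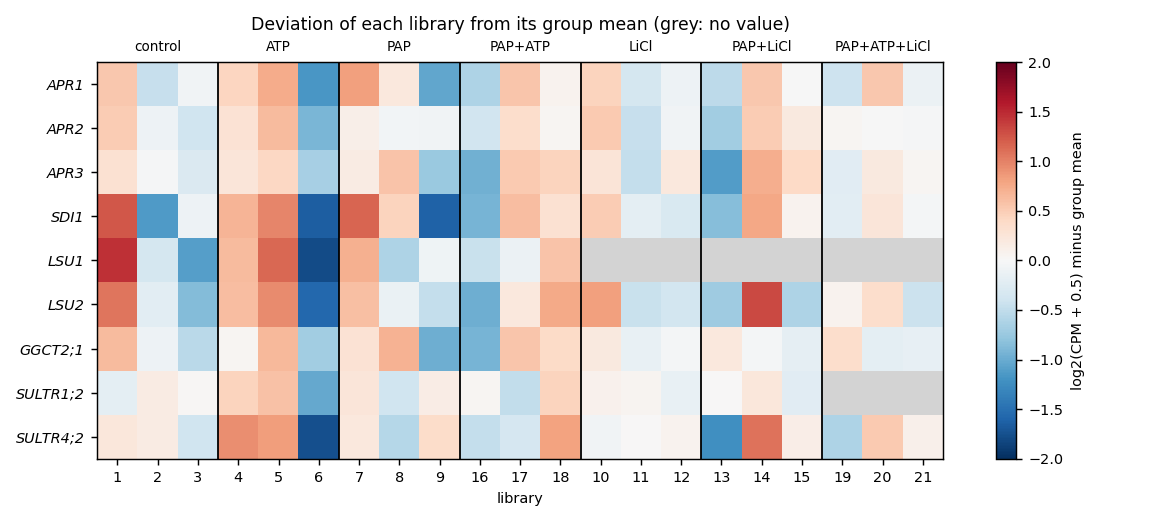
Deviation of each library from the mean of its group on the log2(CPM + 0.5) scale, by gene and library; red is above and blue below the group mean, and grey marks no value. Library 6 is blue in all 9 rows, and library 1 is red for 8 of 9 genes.

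Genes with the most similar pattern were sought over the 21 libraries among all genes with a value in every group. SHM7 and SDI2 were the nearest to both SDI1 (Pearson r of 0.969 and 0.946) and APR1 (0.897 and 0.883), and SULTR4;1 and SDI2 to APR2 (0.877 and 0.872). APR3 was nearest to GAE1, which encodes a UDP-glucuronate epimerase (0.907), LSU2 to the methyltransferase gene BSMT1 (0.935), and GGCT2;1 to AT1G68670 (0.938). SULTR4;2 was nearest to MSRB5 and MSRB4, which encode methionine sulfoxide reductases (0.838 and 0.794). These values too are over libraries that share their treatments.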

How the data were processed

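The authors deposited 1 table of CPM, counts scaled to the library total of reads assigned to genes, for 21156 loci in 21 libraries. Subread alignment to TAIR10 and featureCounts counting are named, without versions, in the submitters' processing notes, and per the labels' protocols libraries were made with a TruSeq V2 kit, which does not keep the strand. Whole reads were recovered: in every library 100.0% of the values corresponded to whole reads (tolerance 1e-06). Values were absent for whole groups in 2926 loci, none was 0, and absent values stayed absent.

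A mean per group was fitted to log2(CPM + 0.5) of all 21 libraries with limma 3.58.1 in R 4.3.3 (moderated, intensity trend), after a filter that asked for 1 CPM or more in 3 or more libraries and left 17794 genes, checked on simulated data. Tests were two-sided, adjusted by Benjamini-Hochberg over all genes tested in a comparison. The labels name no batch. Alternatives were edgeR 4.0.16 and DESeq2 1.42.0 on the recovered reads, scaling by median of ratios, pseudocounts of 0.1 and 2, a stricter filter (mean of 5 CPM or more) and none, a fit of just the groups compared, and leaving out each library. The genes with the most similar pattern were the 3 with the highest Pearson correlation per gene. The set, the list of 37 pathway genes and the markers were chosen with earlier results of these data known, so their counts are descriptions. Positions and promoters are from RefSeq's TAIR10.1, which held 20952 of the loci.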

Additional observations from a re-analysis of the deposited data

How the results depend on the processing

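No call or direction among the 27 calls of single genes reversed in any of the 29 alternative settings. Under pseudocounts of 0.1 and 2, without a filter, with a filter at a mean of 5 CPM and with DESeq2, every call that could be refitted was kept. Scaling by median of ratios lost 1 call (APR1 with PAP, ATP and LiCl against control), edgeR the same 1, and a fit of only the compared groups 2 (APR3 from PAP to PAP with LiCl, and SDI1 with PAP and LiCl against control). EdgeR and DESeq2 left out LSU1 and SULTR1;2, which lack values in some groups. When each library was left out in turn, the number of genes past the threshold ranged from 3 to 5 for LiCl against control, from 3 to 5 with PAP as the background, from 1 to 5 with PAP and ATP, from 3 to 6 for PAP with LiCl against control, and from 3 to 5 for PAP, ATP and LiCl against control. It was 6 throughout for the mean effect of LiCl. It was 0 throughout for the effects of ATP and of PAP and for PAP with ATP against control. It was also 0 throughout for the change of the effect of 1 agent with the presence of another. The cause of these losses was not tested. No paired analysis was possible because the table's columns name the group of a library but not its replicate number. After median-of-ratios scaling the median change over all genes was shifted by 0.20 for ATP against control, by 0.10 for PAP and LiCl against control, and by -0.17 for the effect of PAP with ATP, and by less than 0.1 elsewhere. The depth limits SULTR1;2, with at most 7 reads in a library fed LiCl, and the spread between libraries limits the ATP and PAP comparisons, whose 95% intervals reached from 0.78 to either side for APR2 to 1.70 for LSU1.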
